A study of Homo sapiens with 40 samples.

Results

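Imprinted genes were followed through loss of SETDB1 in A549 cells, a line from a human lung adenocarcinoma that carries K-RAS G12S. The genes were SNRPN, NDN, MAGEL2, PEG10, PEG3, H19, IGF2, MEG3, DLK1 and KCNQ1OT1. They were taken by symbol from the gene count table, and all 10 of 10 had a row among its 62486 gene IDs. Total RNA was sequenced from 3 control libraries (CT) and 3 libraries of cells in which SETDB1 had been disrupted with CRISPR/Cas9 (KO). The guide was carried on the PX458 plasmid, and whether the KO cells were 1 clone or a pool is not given in the sources used here. Both genotypes share the A549 background, and no drug or time course separates them. The labels do not say that libraries of a genotype came from separate cultures, so p-values measure only the spread between these libraries.

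Imprinted genes are expressed mainly from the chromosome inherited from one parent. The choice is held by DNA methylation at imprinting control regions, where zinc finger proteins such as ZFP57 and ZNF445 recruit TRIM28, which in turn brings SETDB1, a methyltransferase that writes trimethylation of histone H3 lysine 9 (H3K9me3). At the Prader-Willi locus on chromosome 15 the zinc finger protein ZNF274 is also known to bring SETDB1 to the SNORD116 small RNA genes. SNRPN, NDN, MAGEL2, PEG10, PEG3, IGF2, DLK1 and KCNQ1OT1 are known as paternally expressed genes, and H19 and MEG3 as maternally expressed ones. The counts do not separate the alleles, so they give the summed output of each gene. In bulk RNA, a change in the number of cells that express a gene and a change in its RNA per cell cannot be told apart.

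Promoter sequence was available for 5 of the 10 genes, SNRPN, NDN, MAGEL2, H19 and MEG3, and the windows below are shown because these genes ran from undetected to strongly higher in KO. Each is the 250 bases before an annotated start in RefSeq on GRCh38.p14, read 5′ to 3′ on the gene's strand, with every CG dinucleotide, the site of DNA methylation, in capitals. PEG10, PEG3, IGF2, DLK1 and KCNQ1OT1 had no entry.
NDN, chr15:23687306-23687555, minus strand: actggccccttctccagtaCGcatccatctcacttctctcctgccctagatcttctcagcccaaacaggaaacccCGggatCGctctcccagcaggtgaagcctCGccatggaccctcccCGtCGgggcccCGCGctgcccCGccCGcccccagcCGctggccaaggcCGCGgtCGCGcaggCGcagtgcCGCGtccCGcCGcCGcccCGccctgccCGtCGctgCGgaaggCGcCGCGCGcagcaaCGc
MAGEL2, chr15:23647868-23648117, minus strand: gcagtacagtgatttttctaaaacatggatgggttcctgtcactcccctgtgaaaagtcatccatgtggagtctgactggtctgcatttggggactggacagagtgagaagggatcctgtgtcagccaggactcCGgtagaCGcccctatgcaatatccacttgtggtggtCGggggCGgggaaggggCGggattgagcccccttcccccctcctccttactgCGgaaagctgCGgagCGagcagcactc
SNRPN, chr15:24954737-24954986, plus strand: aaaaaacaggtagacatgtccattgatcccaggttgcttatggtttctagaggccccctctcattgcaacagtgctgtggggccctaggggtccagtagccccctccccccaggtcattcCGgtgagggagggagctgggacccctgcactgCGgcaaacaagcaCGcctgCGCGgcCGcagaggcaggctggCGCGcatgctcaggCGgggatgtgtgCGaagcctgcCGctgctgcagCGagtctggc
H19, chr11:2001267-2001516, minus strand: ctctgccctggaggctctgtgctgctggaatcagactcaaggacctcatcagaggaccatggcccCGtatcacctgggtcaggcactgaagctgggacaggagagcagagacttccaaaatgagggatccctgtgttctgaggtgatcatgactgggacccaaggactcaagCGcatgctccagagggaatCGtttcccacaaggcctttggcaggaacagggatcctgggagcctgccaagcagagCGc
MEG3, chr14:100825858-100826107, plus strand: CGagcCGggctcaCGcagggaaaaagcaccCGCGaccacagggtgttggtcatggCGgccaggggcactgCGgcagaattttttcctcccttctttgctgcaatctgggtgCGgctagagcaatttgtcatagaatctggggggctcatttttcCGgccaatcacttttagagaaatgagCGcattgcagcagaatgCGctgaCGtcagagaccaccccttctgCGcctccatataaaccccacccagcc

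The NDN window held 30 CG dinucleotides, and 89.1% of 35116 such windows across the genome held no more than that. The H19 window held 4 (34.3% of windows held no more), MAGEL2 held 8 (45.9%), SNRPN held 12 (53.4%) and MEG3 held 13 (55.2%). The median window held 11. The hexamer TGCCGC, the methylated core bound by ZFP57, was searched on both strands. It occurred 2 times in the SNRPN window, 1 time each in the NDN and MEG3 windows and not in the MAGEL2 and H19 windows, beside 12.7% of all windows that held it at least 1 time. A match is only a run of letters and not a measured site. SNRPN has 4 annotated windows and MEG3 has 3, and the one printed for SNRPN, the richest of the 4 in CG, is shared with SNURF. The other SNRPN windows held 6, 1 and 6 CG dinucleotides and 0, 0 and 1 TGCCGC.

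NDN and H19 made the largest moves: NDN went from 0 counts in every control library to a mean of 10.9 CPM (reads scaled to library size) in KO, and H19 rose 8.03-fold. SNRPN and MEG3 rose 1.49-fold and 1.42-fold, while PEG10 and KCNQ1OT1 fell to 57.4% and 71.7% of their control level. IGF2 and DLK1 were at or near the limit of detection, and MAGEL2 and PEG3 gave 0 counts in all 6 libraries. Levels below are CPM, read counts scaled to a common library total, with totals corrected by the trimmed mean of M-values. They are compared between genotypes and never between genes, since the table gives no gene lengths. Of the 10 genes, 6 passed the filter on low counts and entered the quasi-likelihood fit of edgeR. A gene was called at a Benjamini-Hochberg adjusted p under 0.05 over all 17767 genes tested.

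All 6 tested genes were called, 4 higher and 2 lower in KO. These counts describe the genes that passed the filter and not all 10, and NDN passed it only through its KO libraries. Of the other 5, 3 rose and 2 fell. The transcriptome as a whole moved widely: 62.8% of the 17767 genes tested were called, 32.8% higher and 30.0% lower. The CPM ranges of the genotypes did not overlap for any of the 6 genes, as was the case for 65.8% of all tested genes. A change of at least 2-fold was reached upward by 2 of the 6, NDN and H19, against 9.86% of all tested genes, and downward by 0 of the 6, against 4.85%. The median log2 fold change of the 6 was 0.53, and that of all tested genes was 0.0038. It was the same with NDN set at its lower bound, which had to follow, since NDN is the highest of the 6 either way.

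**Figure D1:**
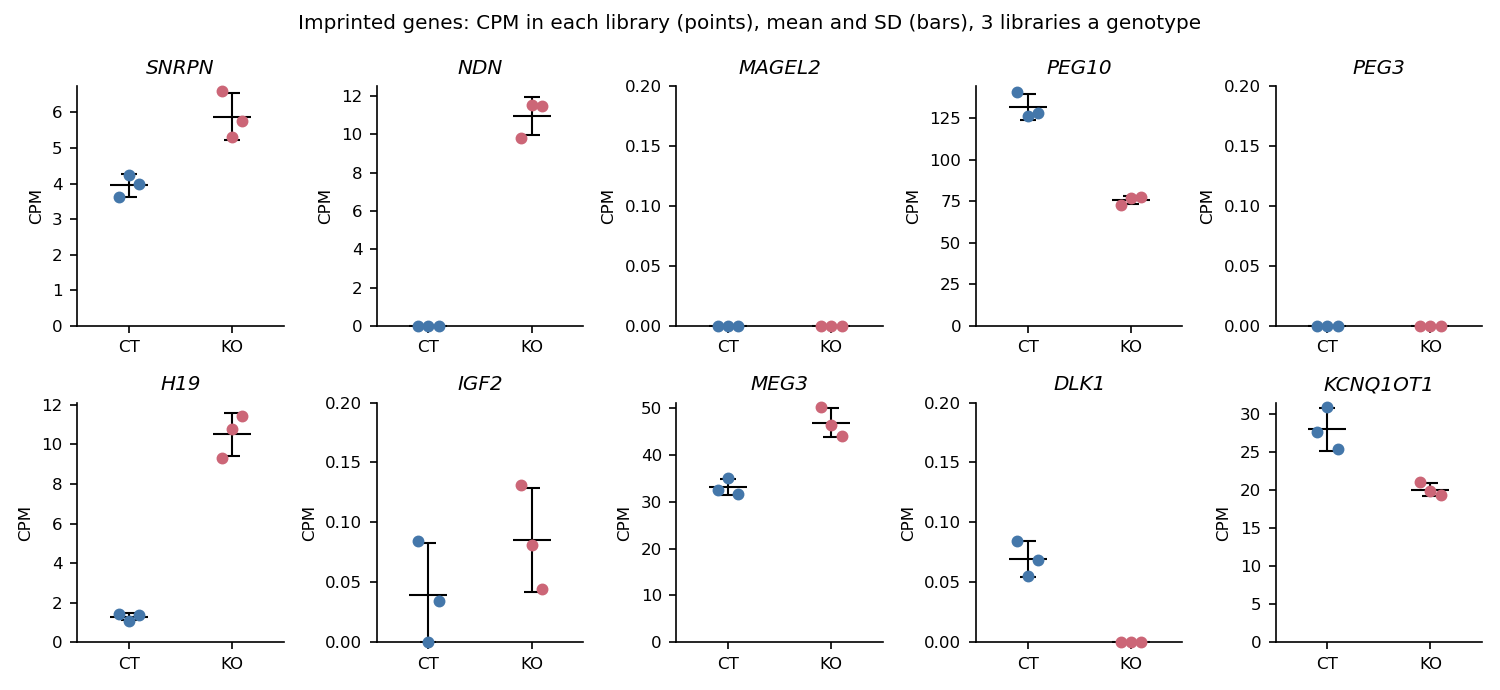
CPM of each of the 10 imprinted genes (vertical axes, a separate linear scale per gene) in the 3 control (CT, blue) and 3 SETDB1 knockout (KO, red) libraries, with mean and SD as bars. NDN lies at 0 in CT and between 9.82 and 11.5 in KO, H19 rises from 1.31 to 10.5 on average, PEG10 falls from 132 to 75.7, and MAGEL2 and PEG3 lie at 0 throughout.

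NDN, MAGEL2 and SNRPN lie in the Prader-Willi region of chromosome 15q11. NDN encodes necdin, a MAGE family protein of neurons that restrains cell growth. It had 0, 0 and 0 counts in CT and 225, 568 and 258 counts in KO, which are 9.82, 11.5 and 11.5 CPM. All 3 KO libraries lay far above all 3 control libraries. The KO mean was 10.9 ± 0.975 CPM (SD, n = 3), at least 82.9-fold higher than the control floor of 3 counts per library, which averages 0.132 CPM. Set against the highest single control floor, the lowest KO library was still at least 59.3-fold higher. The adjusted p from edgeR was 2.4e-19. NDN passed the filter only through its KO counts, so that a call was bound to follow. It was 1 of 125 tested genes with 0 counts in every control library, all 125 of which were called higher, and it ranked 18 among them by KO CPM.

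MAGEL2, the neighbouring MAGE gene and a partner of ubiquitin ligases, had 0 counts in all 6 libraries. A count of 0 allows up to 0.0424 CPM over the 3 control libraries and up to 0.0317 CPM over the 3 KO libraries, for counting error only. NDN and MAGEL2 therefore differed in detection within the same region: the first was seen in 3 of 3 KO libraries and the second in 0 of 3.

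SNRPN, which encodes a small nuclear ribonucleoprotein of the spliceosome, was at 3.61, 4.25 and 3.98 CPM in CT and at 6.59, 5.30 and 5.75 CPM in KO. Its lowest KO library lay above its highest control library. The mean went from 3.95 ± 0.322 to 5.88 ± 0.658 CPM (SD, n = 3 each), or 0.55 on the log2 scale (SE 0.12, adjusted p = 0.00022 by edgeR). SNRPN shares its strand and part of its transcript with SNURF and SNHG14, so the division of reads among the 3 genes is uncertain. SNURF itself had 4 to 12 counts in CT and 5 to 15 in KO and was under the filter.

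Within each library, the log2 ratio of NDN to SNRPN counts (0.5 added to each) rose from -7.52 ± 0.307 in CT to 0.90 ± 0.287 in KO. The difference of 8.42 rests on control counts of 0 and so depends on the added 0.5, but its sign does not. With 3 libraries against 3, the exact permutation test gave its smallest possible p, 0.1 (two-sided, 0.133 after Benjamini-Hochberg adjustment over 4 ratios).

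The other genes of the locus moved in different directions. SNHG14, the long host transcript of the SNORD116 and SNORD115 small nucleolar RNAs, rose from 117 ± 1.27 to 164 ± 3.38 CPM (log2 fold change 0.48, SE 0.042, edgeR adjusted p = 7.4e-11). MKRN3, an imprinted ubiquitin ligase known for its part in the timing of puberty, rose from 2.20 ± 0.159 to 4.65 ± 0.667 CPM (log2 fold change 1.11, SE 0.14, edgeR adjusted p = 1.2e-07). UBE3A, the ubiquitin ligase lost in Angelman syndrome, was at 99.0 ± 1.90 in CT and 96.2 ± 2.18 in KO, with overlapping libraries (adjusted p = 0.42). ATP10A, a phospholipid flippase at the far side of UBE3A, fell from 27.6 ± 0.410 to 9.29 ± 0.387 CPM (log2 fold change -1.58, SE 0.070, edgeR adjusted p = 2.4e-17). NPAP1, PWAR1 and PWAR5 gave 0 counts in all libraries, PWRN1 gave 1 count in CT and 1 in KO, and PWAR6 and IPW were not matched to a row.

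The small RNA copies were looked at after the values of their host were seen. Of 25 SNORD116 rows, 21 were at 0 in all libraries, and the summed counts were 2, 1 and 5 in CT and 1, 16 and 2 in KO. Of 44 SNORD115 rows, 43 were at 0. Reads from near-identical copies cannot be divided with confidence, so these counts carry no comparison.

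Going outward from NDN in chromosome order, the 10 tested genes on each side (19 in all, as the chromosome end leaves 9 on one side) had a median log2 fold change of 0.073. Of these, 7 rose and 6 fell. The chromosome as a whole had a median of -0.04. GABRA5, which encodes a GABA-A receptor subunit and was picked out after its value was seen, fell by 2.49 on the log2 scale. NDN thus stood beside neighbours that moved both ways and by far less.

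The H19-IGF2 pair lies on chromosome 11p15, where one control region serves both genes. H19, a long noncoding RNA and microRNA host, was at 1.44, 1.10 and 1.37 CPM in CT (34, 20 and 40 counts) and at 9.30, 10.8 and 11.4 CPM in KO (213, 532 and 256 counts). Every KO library lay above every control library. The mean rose from 1.31 ± 0.180 to 10.5 ± 1.09 CPM (SD, n = 3 each), or 2.99 on the log2 scale (SE 0.14, adjusted p = 5.2e-17 by edgeR). That change is at the 97.02 percentile of all tested genes.

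IGF2, the fetal growth factor, gave 2, 0 and 1 counts in CT and 3, 4 and 1 in KO. The genotypes overlapped. The summed counts of 3 and 8 correspond to a depth-corrected ratio of 1.99 (95% exact interval 0.479 to 11.7, counting error only), so a change was not detectable at this depth. The antisense transcript IGF2-AS had 0 to 2 counts per library and INS had 0. The within-library log2 ratio of H19 to IGF2 went from 4.63 ± 0.793 to 6.75 ± 0.754, a difference of 2.11 (exact permutation test, p = 0.1, the smallest possible, 0.133 after adjustment). The CT and KO ratios did not overlap, but IGF2 contributes only single counts to them and the difference falls to 1.38 when 0.1 is added in place of 0.5. The 20 tested genes around H19 had a median log2 fold change of 0.022, with 6 higher and 3 lower. Its nearest tested neighbours MRPL23-AS1 and CD81 had log2 fold changes of -0.07 (edgeR adjusted p = 0.86) and -0.01 (adjusted p = 0.83). MRPL23, the next gene beyond MRPL23-AS1, had 0.06 (adjusted p = 0.59).

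KCNQ1OT1 lies in the second imprinted domain of 11p15, in which this long noncoding RNA is known to silence neighbouring genes on its own chromosome. It was at 27.7, 31.0 and 25.4 CPM in CT and at 21.04, 19.9 and 19.4 CPM in KO, with no overlap. The mean fell from 28.0 ± 2.80 to 20.1 ± 0.834 CPM (SD, n = 3 each), or -0.47 on the log2 scale (SE 0.069, adjusted p = 1.2e-06 by edgeR). KCNQ1OT1 runs antisense within KCNQ1, and the strand setting of the counting is not given in the sources used here. KCNQ1 itself, a potassium channel gene, had 5 to 8 counts in CT and 9 to 19 in KO and was under the filter.

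Of the 5 other tested genes of that domain, all known as maternally expressed, 3 rose and 2 were not called. Over all tested genes, 32.8% were called higher and 30.0% lower. A link of the 3 rises to KCNQ1OT1 was not tested. PHLDA2, a restraint on placental growth, rose from 4.10 ± 0.387 to 10.3 ± 1.13 CPM (log2 fold change 1.34, SE 0.11, edgeR adjusted p = 1.8e-11). SLC22A18, a transporter gene, rose by 0.73 and OSBPL5, a lipid transfer gene, by 0.54 on the log2 scale (edgeR adjusted p = 4.1e-09 and 5.2e-07). CDKN1C, a cyclin-dependent kinase inhibitor and the best known target of KCNQ1OT1, had 22, 13 and 15 counts in CT and 21, 30 and 6 in KO. Its log2 fold change was -0.23 (adjusted p = 0.56), and SLC22A18AS had 0.46 (adjusted p = 0.060, or 0.014 without KO library 1). The log2 ratio of KCNQ1OT1 to CDKN1C was 5.27 ± 0.370 in CT and 5.19 ± 0.806 in KO (exact permutation test, p = 1), with overlapping libraries.

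MEG3 and DLK1 form a pair on chromosome 14q32. MEG3, a maternally expressed long noncoding RNA with growth-restraining activity, was at 32.5, 35.0 and 31.6 CPM in CT and at 50.2, 46.4 and 44.0 CPM in KO. The KO libraries all lay above the control libraries. The mean rose from 33.0 ± 1.75 to 46.8 ± 3.11 CPM (SD, n = 3 each), or 0.51 on the log2 scale (SE 0.059, adjusted p = 1.8e-08 by edgeR). DLK1, a paternally expressed inhibitor of adipocyte differentiation and Notch ligand relative, gave 2, 1 and 2 counts in CT and 0, 0 and 0 in KO. Both genotypes were at or under the floor of 3 counts per library, so no fold is given. The summed counts of 5 and 0 leave a 95% exact interval of 0 to 0.816 for the ratio of KO to CT (counting error only), below 1, while the edgeR fit without a filter gave an adjusted p of 0.052.

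The log2 ratio of MEG3 to DLK1 was 8.50 ± 0.234 in CT and 11.4 ± 0.645 in KO (exact permutation test, p = 0.1, the smallest possible, 0.133 after adjustment). Its difference of 2.92 ranged from 2.23 to 4.93 with the constant added to the counts, because DLK1 was near or at 0. Of the other genes of the locus, MEG8 had a log2 fold change of -0.04 (adjusted p = 0.73) and RTL1, a retrotransposon-derived placental gene, -0.18 (adjusted p = 0.50). MEG9 rose from 0.595 ± 0.0117 to 1.10 ± 0.325 CPM (log2 fold change 0.76, SE 0.28, edgeR adjusted p = 0.022), on 11 to 36 counts per library. DIO3, a thyroid hormone-inactivating deiodinase, was lower by the test with overlapping libraries, 1.53 ± 0.412 in CT and 1.03 ± 0.251 in KO (log2 fold change -0.64, SE 0.23, edgeR adjusted p = 0.020). Both calls were lost in DESeq2, with adjusted p = 0.059 for MEG9 and 0.095 for DIO3. In edgeR, MEG9 lost its call without CT library 3, KO library 1 or KO library 3 (adjusted p = 0.062, 0.10 and 0.069), and DIO3 without CT library 2, CT library 3 or KO library 2 (0.081, 0.11 and 0.17).

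PEG10, on chromosome 7q21, is a gene domesticated from a retrotransposon and needed for the placenta. It was at 140.9, 126 and 128 CPM in CT and at 72.9, 76.7 and 77.4 CPM in KO. All control libraries lay above all KO libraries. The mean fell from 132 ± 8.01 to 75.7 ± 2.46 CPM (SD, n = 3 each), or -0.80 on the log2 scale (SE 0.048, adjusted p = 3.1e-14 by edgeR), at the 7.67 percentile of all tested genes.

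SGCE, the sarcoglycan gene that lies head to head with PEG10 and is likewise paternally expressed, went the opposite way. It rose from 44.4 ± 3.51 to 54.7 ± 2.80 CPM (log2 fold change 0.30, SE 0.057, edgeR adjusted p = 6.2e-05). TFPI2, a protease inhibitor gene, rose by 0.50 (adjusted p = 5.1e-11) and PPP1R9A by 0.12 (adjusted p = 0.031) on the log2 scale in edgeR. The PPP1R9A call was lost in DESeq2 (adjusted p = 0.064), under upper quartile scaling (0.13), and without CT library 3, KO library 1 or KO library 3 (0.19, 0.11 and 0.052). The 20 tested genes around PEG10 had a median log2 fold change of 0.079, with 9 higher and 7 lower.

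PEG3, on chromosome 19q13, encodes a zinc finger protein and gave 0 counts in all 6 libraries, with the same upper limits as MAGEL2. ZIM2, which shares exons with it, and MIMT1 were also at 0 throughout, and USP29 had 0 counts in CT and 1, 1 and 0 in KO. Around this undetected gene, all 20 of the 20 nearest tested genes, 10 on each side, rose in KO. Their median log2 fold change was 1.86 and the lowest 0.41, and over all tested genes 32.8% were called higher. Only genes that passed the filter are counted, and which of them passed it through KO libraries alone was not tested. Most of the 20 are zinc finger genes, among them ZNF470 (1.90), ZNF264 (1.25) and ZNF71 (0.41). With 20 genes on each side, 39 of 40 rose and the median was 1.501, and with 5 on each side it was 1.09. Chromosome 19 as a whole had a median of 0.34. Around NDN, H19 and MEG3 the median turned below 0 with 5 genes on each side (-0.08, -0.04 and -0.11), and with 20 it was 0.07, 0.14 and -0.05.

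**Figure D2:**
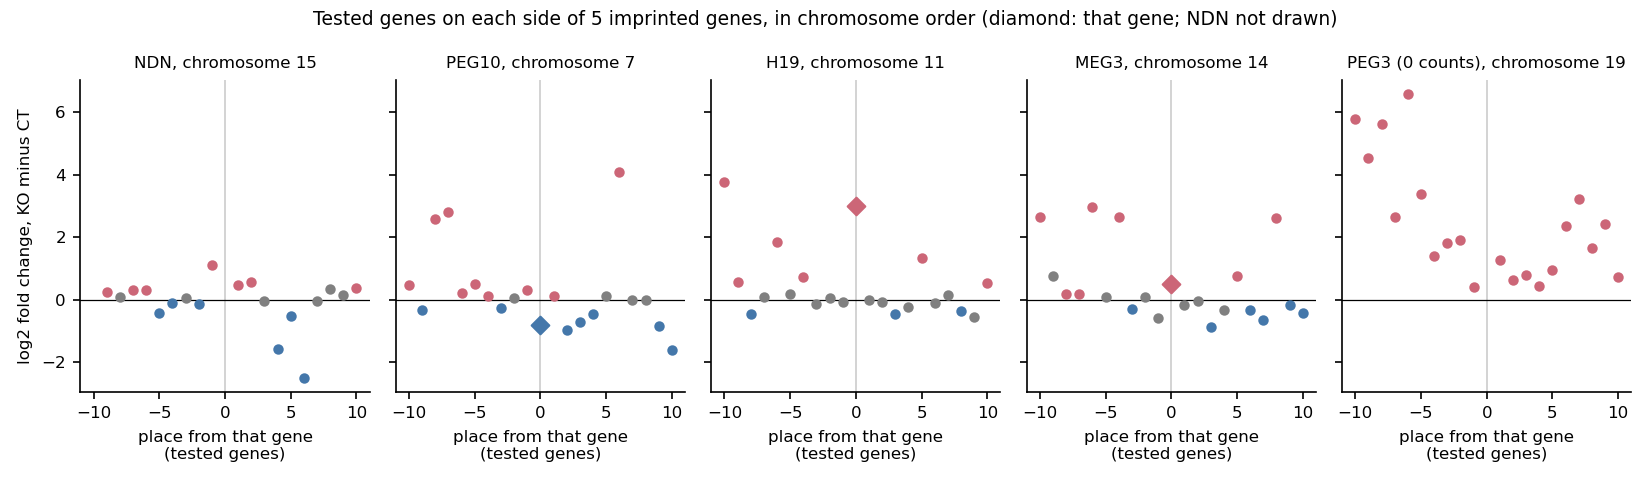
Log2 fold change, KO minus CT (vertical axis), of the tested genes in chromosome order on each side of NDN, PEG10, H19, MEG3 and PEG3 (horizontal axis, place counted in tested genes), in red where called higher, blue where called lower and grey where not called. NDN itself is not drawn and PEG3 has no counts. Around NDN, PEG10, H19 and MEG3 the median over 10 genes a side lies between 0.017 and 0.079. All 20 genes around PEG3 are higher, with a median of 1.86, beside 32.8% called higher over all tested genes.

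The 10 genes were then set beside other imprinted genes. The first held 29 genes of the same loci, of which 27 had a row and 16 were tested: 9 rose, 2 fell and 5 were not called, with a median log2 fold change of 0.38. The second held 25 imprinted genes from other loci, of which 21 were tested: 10 rose, 3 fell and 8 were not called, with a median of 0.16. In this second list, the expressed allele of GRB10, GNAS, BLCAP, RB1, IGF2R, NAA60 and DLX5 depends on isoform or tissue. With the 10 genes above, 64 imprinted genes gave 43 tested, 23 higher (53.5%) and 7 lower (16.3%), and a median of 0.24, beside 32.8% higher, 30.0% lower and 0.0038 for all tested genes. At least 2-fold higher were 6 of the 43, against 9.86% of all tested genes, and at least 2-fold lower were 2, against 4.85%. The 23 and the 6 include NDN, which passed the filter only through its KO libraries. The lists were chosen with earlier results of these data known, so these shares are a description and no test. Sizes inside the locus list ran from -1.58 for ATP10A to 1.34 for PHLDA2.

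Among imprinted genes elsewhere, DIRAS3, a paternally expressed RAS-related growth inhibitor, was at 1.15, 0.662 and 0.859 CPM in CT and at 16.4, 15.4 and 15.4 CPM in KO, a 17.7-fold rise (log2 fold change 4.11, SE 0.13, edgeR adjusted p = 2.1e-20). PLAGL1, a paternally expressed zinc finger factor, was at 6.50, 5.30 and 6.25 CPM in CT and at 1.05, 0.933 and 1.16 CPM in KO, or 17.4% of control (log2 fold change -2.57, SE 0.15, edgeR adjusted p = 1.7e-14). HYMAI, the noncoding RNA from the same promoter region, had 7, 9 and 10 counts in CT and 1, 3 and 2 in KO and was under the filter. FAM50B rose by 1.55 and ZNF331 by 0.57 on the log2 scale. ZDBF2 rose by 0.71 on a chromosome, 2, whose tested genes had a median of -0.54. GRB10, an adaptor that restrains insulin receptor signalling, fell by 0.70. Among the tested genes named here, paternally expressed ones were thus found on both sides. NDN, SNRPN, SNHG14, MKRN3, SGCE, DIRAS3, ZDBF2, FAM50B and ZNF331 were higher. PEG10, KCNQ1OT1, PLAGL1 and DIO3 were lower, and RTL1 was not called. Outside the loci of the 10 genes, tested paternally expressed genes were named only where called, so no balance can be read from these names. Left out by that rule were MEST and NAP1L5, called higher, and MESTIT1, NNAT, L3MBTL1 and INPP5F, not called. Maternally expressed genes also went both ways, with H19, MEG3 and PHLDA2 among the higher, ATP10A lower, and UBE3A and MEG8 among those not called.

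**Figure D3:**
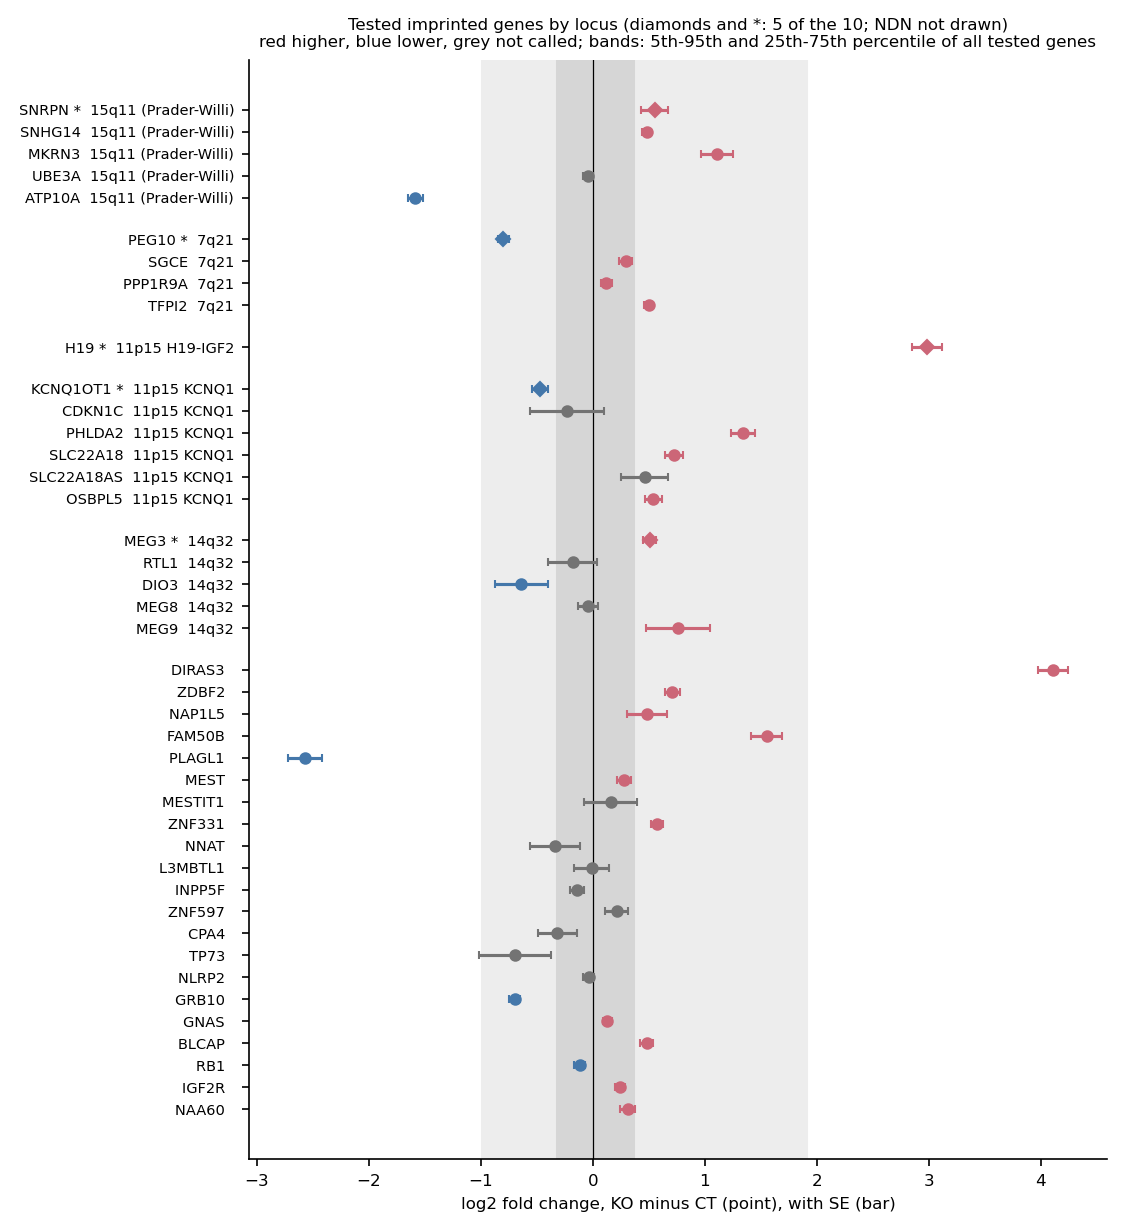
Log2 fold change, KO minus CT (horizontal axis), with its SE as bars for the tested imprinted genes (vertical axis) by locus, in red where higher, blue where lower and grey where not called, with the 5th to 95th and 25th to 75th percentile of all tested genes as light and dark bands. H19 (2.99) and DIRAS3 (4.11) lie above the light band and PLAGL1 (-2.57) and ATP10A (-1.58) below it, while PEG10, KCNQ1OT1, SNRPN and MEG3 lie inside it. NDN is not drawn, since its control counts are 0.

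The genes that hold imprints were read next, starting with the targeted one. SETDB1 was at 37.5, 39.6 and 38.7 CPM in CT and at 23.4, 21.2 and 21.1 CPM in KO, 56.8% of control (log2 fold change -0.82, SE 0.060, edgeR adjusted p = 1.7e-12). Its RNA fell in the KO libraries without being lost, and a count over the gene does not read the protein. TRIM28, the scaffold that brings SETDB1 to zinc finger proteins, had a log2 fold change of -0.06 (adjusted p = 0.30), and ZNF445 had 0.12 (adjusted p = 0.085). Without CT library 1 both passed the threshold in edgeR (adjusted p = 0.025 and 0.016), as ZNF445 did without KO library 1 (0.048), with library size alone (0.030), without a filter (0.044) and with the replicate block (0.0499). ZFP57 had 0, 0 and 0 counts in CT and 3, 3 and 0 in KO and was under the filter. ZNF274 was at 19.5, 19.1 and 20.4 CPM in CT and at 84.8, 83.6 and 85.1 CPM in KO, a 4.29-fold rise (log2 fold change 2.10, SE 0.054, edgeR adjusted p = 8.0e-23). It lies on chromosome 19, like PEG3.

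Of 21 such genes, 18 were tested: 4 rose (22.2%, against 32.8% of all tested genes), 11 fell (61.1%, against 30.0%) and 3 were not called, with a median log2 fold change of -0.16. SETDB1, the disrupted gene, is counted among the 11 that fell and had the largest fall (log2 fold change -0.82). The other falls were smaller. TET3, a 5-methylcytosine oxidase, fell by 0.68 and the DNA methyltransferase DNMT3B by 0.59 on the log2 scale. The chromatin remodeller HELLS fell by 0.53 and SMCHD1, a chromatin protein of silenced domains, by 0.44. TET3 lies on chromosome 2, whose median was -0.54. With scaling by library size alone, 7 in place of 11 fell, and 7 fell also without CT library 2, CT library 3 or KO library 3.

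IGF2 acts through receptors and binding proteins, and H19 and IGF2 are read with them. Of 17 genes of this axis, 16 were tested: 8 rose (50%, against 32.8% of all tested genes), 5 fell (31.2%, against 30.0%) and 3 were not called, with a median log2 fold change of 0.13. The receptor IGF1R fell by 0.35 and the decoy receptor IGF2R rose by 0.24 on the log2 scale (edgeR adjusted p = 1.5e-07 and 3.5e-05). Among the binding proteins, IGFBP1 rose 3.05-fold, IGFBP7 3.05-fold and IGFBP3 1.94-fold. IGFBP5 went from 6, 7 and 12 counts in CT to 60, 122 and 49 in KO, a ratio of 6.91 in CPM, and it passed the filter on low counts only through its KO libraries, so its call was bound to follow. IGFBP2 fell to 39.9% and IGFBP4 to 51.3% of control. IGFBP2 and IGFBP5 are neighbours on chromosome 2 that moved in opposite directions.

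**Figure D4:**
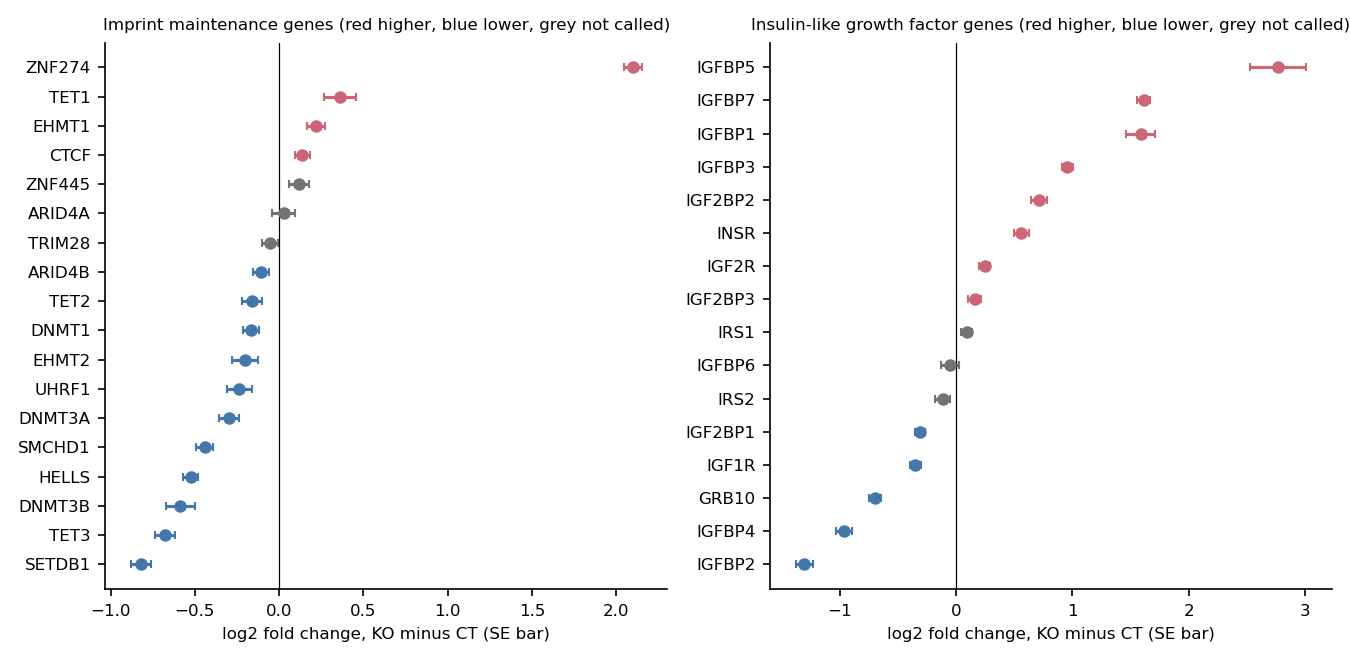
Log2 fold change, KO minus CT (horizontal axes), with its SE as bars for the tested genes of imprint maintenance (left) and the insulin-like growth factor axis (right), in red where higher, blue where lower and grey where not called. ZNF274 (2.10) stands above the other maintenance genes. Of the 18 drawn, 11 are lower, among them the disrupted SETDB1. The binding proteins run from -1.31 for IGFBP2 to 2.77 for IGFBP5.

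Depth and identity of the libraries were as follows. Totals ran from 18065062 to 48364919 counts, with the deepest library in KO, and the mitochondrial ribosomal RNA MT-RNR2 took 18.7% to 21.5% of each. Of 10 markers of the epithelial line, all 10 were detected, with summed levels of 18537 to 19080 CPM in CT and 24544 to 25451 in KO. They moved in both directions: KRT19, KRT18 and KRT8 were 5.63-, 3.32- and 2.90-fold higher, and AKR1C1 and AKR1B10 were at 34.3% and 54.5% of control. Their part in the results above was not tested. Alveolar markers summed to 1.15 to 1.66 CPM in CT and 1.60 to 1.88 in KO, with NKX2-1 at 0, 0 and 0 counts in CT and 1, 2 and 2 in KO and SFTPA1 at 0. Blood markers (5 genes, CD3E at 0) summed to 0.103 to 0.221 and 0.480 to 0.548 CPM, and fibroblast markers (5 genes, DCN at 0) to 3.57 to 3.70 and 4.89 to 5.30 CPM. Endothelial markers (3 of 4 with a row) summed to 0.276 to 0.412 CPM in CT and 3.97 to 5.28 in KO, nearly all from CDH5, with 5, 5 and 11 counts in CT and 87, 252 and 105 in KO, while VWF had 0 to 2 counts and KDR 0 to 6. CDH5 moved with NDN and H19, and its part in those results was not tested. Trophoblast and pluripotency markers (6 genes, CGA and HLA-G at 0) summed to 0.607 to 1.02 CPM in CT and 0.535 to 0.655 in KO.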

How the data were processed

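RNA was sequenced from 3 CT and 3 KO libraries of A549 cells with a stranded total RNA kit, per the labels' protocols. The authors deposited whole-number read counts per Ensembl gene. STAR 2.6.1c, edgeR 3.30.0 and build hg19 are among the tools and builds named in the submitters' processing notes. The counter, its strand setting and the annotation are not given in the sources used here. Chromatin and Hi-C files were not used here.

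Of 62486 gene IDs, 58642 (93.8%) matched a symbol. Repeated IDs (49, with 3 counts in all) stayed as separate rows, and 0 per-sample columns went unmapped. In R 4.3.3, edgeR 4.0.16 fitted the counts by robust quasi-likelihood with genotype as the single term, after filterByExpr and TMM scaling, with Benjamini-Hochberg adjustment at 0.05 over all genes tested. Log2 fold changes are edgeR's. Each SE was derived as the absolute log2 fold change divided by the square root of edgeR's F statistic. Linear folds and percents of control are ratios of mean CPM. CPM used TMM-scaled library sizes. A gene at 0 in one genotype was set at a floor of 3 counts per library. Ratios within a library used an offset of 0.5 and an exact permutation test. Chromosomes and gene order came from RefSeq on GRCh38.p14, which placed 87.9% of tested genes and was used for no coordinates of the counts.

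The 10 genes and all lists were chosen with earlier results of these data known. Named were all 10 genes, every tested gene of their loci, the 6 largest changes of each other list among called genes, and SETDB1, TRIM28, ZFP57, ZNF445, ZNF274, IGF1R and IGF2R. Library totals of 18065062 to 48364919 counts set the precision, and intervals cover counting error only. Replicates were compared pairwise, and each pair differed by more than sampling noise (chi-square per degree of freedom 1.75 to 7.65). Tested on simulated data with 200 of 17767 genes changed, the fit recovered 89.0% of 2-fold and 99.1% of 4-fold changes, with 3.16% false calls. Recovery was counted over the 194 changed genes that passed the filter. The simulation gave every gene the same dispersion and changed far fewer genes than the 62.8% called here. Its rates therefore do not carry over to these data. Alternatives were other scalings, other filters, DESeq2 1.42.0, limma 3.58.1, a replicate block and leaving out each library. Figures were drawn with matplotlib 3.10.9.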

Additional observations from a re-analysis of the deposited data

How the results depend on the processing

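Every tested gene among the 10 (NDN, H19, SNRPN, MEG3, PEG10 and KCNQ1OT1) kept its direction and its call in 14 of 14 alternatives, with log2 fold changes of 2.90 to 3.06 for H19, 0.48 to 0.65 for SNRPN, 0.47 to 0.55 for MEG3, -0.83 to -0.75 for PEG10 and -0.54 to -0.40 for KCNQ1OT1. For NDN, with 0 counts in every control library, that outcome was bound to follow and carries no support. Of 810 alternative values in all, 760 were labelled unchanged, 13 lost a call, 8 gained one, 21 moved and 8 changed sign. For the fold change of a gene, unchanged means the same direction and side of the threshold. For a list count it means within a set fold of the main count, for a ratio the same sign. For a neighbour median it means a shift under the SD over KO libraries. The count of higher genes of the same loci, 9 in the main fit and 7 under DESeq2, was thus labelled unchanged. Whether replicate numbers pair the libraries is not settled: same-numbered deviations correlated at 0.111, 0.0641 and 0.0467. CT libraries 1 and 2 correlated best with the KO library of the same number, and CT library 3 with KO library 2. With a replicate block, 4 of the 10 genes were higher and 2 lower, as without it, and 11655 genes were called in all in place of 11157. The count of lower genes of the same loci went from 2 to 1 under DESeq2, and from 1 to 2 over leaving out single libraries. The count of lower imprint maintenance genes went from 11 to 7 with library size alone, and from 7 to 11 over leaving out single libraries. MEG8 (-0.04) was 0.0006128 without a filter and ranged from -0.16 to 0.046 over leaving out single libraries. CDKN1C (-0.23) ranged from -0.50 to 0.020. The ratio of KCNQ1OT1 to CDKN1C differed by -0.52 to 0.27 over leaving out single libraries. The cause was not tested.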
